A study of Mus musculus with 5 samples.

Results

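The 10 genes described here code for the regulators of the G1 phase of the cell cycle: the D-type cyclins Ccnd1, Ccnd2, and Ccnd3, the E-type cyclins Ccne1 and Ccne2, the cyclin-dependent kinases Cdk2, Cdk4, and Cdk6, the retinoblastoma gene Rb1, and the transcription factor gene E2f1. They were picked by gene symbol, and all 10 were found among the 24421 genes of both deposited expression tables. RNA-seq had been run on 5 mouse libraries, with 1 library per group. The first table holds mouse embryonic fibroblasts (MEFs), induced pluripotent stem cells (iPSCs), and V6.5 cells, which are an embryonic stem cell line of the mouse. The second table, which was made separately, holds V6.5 cells carrying a non-targeting control shRNA (NTC) and V6.5 cells carrying an shRNA against Gldc (shGldc), the gene of glycine decarboxylase. MEFs came from E13.5 embryos of CF-1 mice, were used at low passage, and were grown in serum. The iPSC line was bought from a cell bank. Per the growth notes of the libraries, iPSCs and V6.5 cells were grown without feeder cells on gelatin, in medium with serum replacement, little serum, and leukaemia inhibitory factor, so by these notes medium and cell type cannot be told apart between MEFs and the other libraries. The shRNAs were expressed from the pLKO.1 vector, and which of several Gldc shRNA sequences the library carries is not stated in its labels. The column of the table is headed sh3 and was taken as the shGldc library because no other Gldc shRNA sample is listed for that table. Since no group has a replicate, the differences below have no replicate error and no p-value, and only mRNA was measured, not protein or kinase activity.

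D-type cyclins are made in response to growth signals and bind Cdk4 and Cdk6. E-type cyclins bind Cdk2 later in G1. Both kinds of complex phosphorylate the retinoblastoma protein, which otherwise holds E2F transcription factors in check, and the freed E2F factors switch on genes for DNA replication, Ccne1 among them. Inhibitors of the INK4 family block Cdk4 and Cdk6, and inhibitors of the Cip/Kip family act mainly on Cdk2 complexes. Mouse embryonic stem cells are known for a short G1 phase, for cyclin E and Cdk2 activity that varies little through the cycle, and for a retinoblastoma protein that is kept largely phosphorylated, whereas fibroblasts need mitogens to leave G1.

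Start site sequence is shown for the members with the highest levels in the pluripotent libraries, Cdk4, Ccnd3, and Ccne1. The letters are from RefSeq (GRCm38.p6), written 5′ to 3′ on the strand of the gene, and only bases outside annotated exons are given. Capitals mark CACGTG, the E box that Myc proteins are known to bind, and GGGCGG or its reverse complement CCGCCC, the GC box that Sp1 is known to bind. Ccnd3 has 2 annotated starts, and a gene-level value does not tell which of them was used.
Cdk4, chr10:127063285-127063533, plus strand: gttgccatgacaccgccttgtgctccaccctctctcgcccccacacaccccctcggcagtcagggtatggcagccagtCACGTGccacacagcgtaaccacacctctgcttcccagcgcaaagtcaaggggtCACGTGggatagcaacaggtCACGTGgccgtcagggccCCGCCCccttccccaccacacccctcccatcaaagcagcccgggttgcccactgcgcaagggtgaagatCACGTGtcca
Ccnd3, far start, chr17:47504801-47505050, plus strand: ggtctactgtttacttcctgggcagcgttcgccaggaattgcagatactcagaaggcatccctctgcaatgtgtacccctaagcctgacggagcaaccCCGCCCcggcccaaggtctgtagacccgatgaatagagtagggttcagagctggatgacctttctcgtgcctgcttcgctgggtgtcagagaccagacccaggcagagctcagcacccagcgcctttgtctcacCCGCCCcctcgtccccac
Ccnd3, near start, chr17:47593217-47593435, plus strand: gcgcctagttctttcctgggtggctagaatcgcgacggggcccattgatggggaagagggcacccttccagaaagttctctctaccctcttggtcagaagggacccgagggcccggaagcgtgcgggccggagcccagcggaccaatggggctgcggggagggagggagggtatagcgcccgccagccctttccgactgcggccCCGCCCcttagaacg
Ccne1, chr7:38107535-38107740, minus strand: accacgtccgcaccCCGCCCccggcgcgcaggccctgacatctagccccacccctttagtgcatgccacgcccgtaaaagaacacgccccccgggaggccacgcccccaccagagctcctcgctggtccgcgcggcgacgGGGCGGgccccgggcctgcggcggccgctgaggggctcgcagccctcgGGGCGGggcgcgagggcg

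Cdk4 held 4 E boxes and 1 GC box in the 250 bases before its start. A window with at least 1 E box made up 6.02% of the 32851 RefSeq windows of the same length, and 7 windows (0.0213%) held at least 4. None of the Ccnd3 and Ccne1 windows held an E box. GC boxes numbered 4 in the whole Ccne1 window, of which 3 lie in the bases printed, 2 at the far Ccnd3 start, and 1 at the near start, against 32.7% of all windows with at least 1 and 4.09% with at least 4. Of the windows not shown, that of Cdk2 held 5 GC boxes, that of E2f1 held 4, and that of Cdk6 held 1 E box. The E2f1 window lies wholly in annotated exons of E2f1, and the Cdk6 E box is not in the longest exon-free stretch of its window. The E2F letters TTTCCCGC, TTTCGCGC, TTTGCCGC, and TTTGGCGC, also searched on both strands, were found in 1 of 7 member windows, that of Cdk2, in bases that overlap an exon of Pmel and are not printed, and in 1.86% of all windows. Windows were found for 6 of the 10 members, each motif was counted on its own, so matches of different motifs may overlap, and a match is a description of the letters only.

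The libraries held the RNA their labels name, with exceptions that bear on the comparisons with MEFs. The FPKM (mapped fragments scaled to transcript length and to library size) of Gldc was 74.7 in NTC and 2.07 in shGldc cells, which is 2.77% of the NTC level. The 12 pluripotency markers summed to an FPKM of 25.5 in MEFs, of which Klf4 held 22.2, and to between 3918 and 7247 in the other 4 libraries, where none was listed at 0. The 10 fibroblast markers summed to 7123 in MEFs and to between 29.1 and 81.1 in the other libraries, and Fbln1 was not specific, at 28.4 in MEFs and 29.1 in V6.5 cells. Without Fbln1, V6.5 cells still had Col1a1 at 20.5 and Col1a2 at 15.3, against 1.24 and 0.225 in NTC cells. MEFs also had 9 of 10 macrophage markers at an FPKM of at least 1, with Lyz2 at 141.7 and C1qa at 52.7, and the macrophage sum was 334.3 in MEFs and between 11.0 and 20.9 elsewhere, most of it Cd68. The part of these other cells in the differences from MEFs was not tested, and in such bulk RNA fewer cells of a type and less RNA per cell cannot be told apart. The total FPKM ran from 466650 in MEFs to 576470 in iPSCs, and depth was estimated at about 22100000 to 29100000 fragments per library. The estimate was weak for NTC and shGldc cells, where 25 of 390 and 32 of 366 low values lay at multiples of the step, against 19 and 17 for a step of double the size.

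The D-type cyclins differed in kind more than in amount between MEFs and the pluripotent libraries. Gene positions are given on mm10 from GENCODE M21. Ccnd2 (chr6:127125162-127152193, minus strand) had an FPKM of 96.5 in MEFs, 1.20 in iPSCs, 1.57 in V6.5 cells, 0.359 in NTC cells, and 0.888 in shGldc cells. MEFs were far above the rest, and the order of the 4 pluripotent libraries rests on low values. The Ccnd2 level was 61.4-fold lower in V6.5 cells and 80.1-fold lower in iPSCs than in MEFs, and the log2 ratios, taken here and below after adding 0.1 to each FPKM, were -5.85 and -6.21. Of all genes tested, 0.763% had a ratio as low or lower in V6.5 cells over MEFs, and 1.15% in iPSCs over MEFs. At the estimated depth and the length of the longest coding transcript, these levels stand for about 15000 fragments in MEFs, 170 in iPSCs, 240 in V6.5 cells, 66 in NTC cells, and 160 in shGldc cells, so Ccnd2 was low but not absent.

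**Figure D1:**
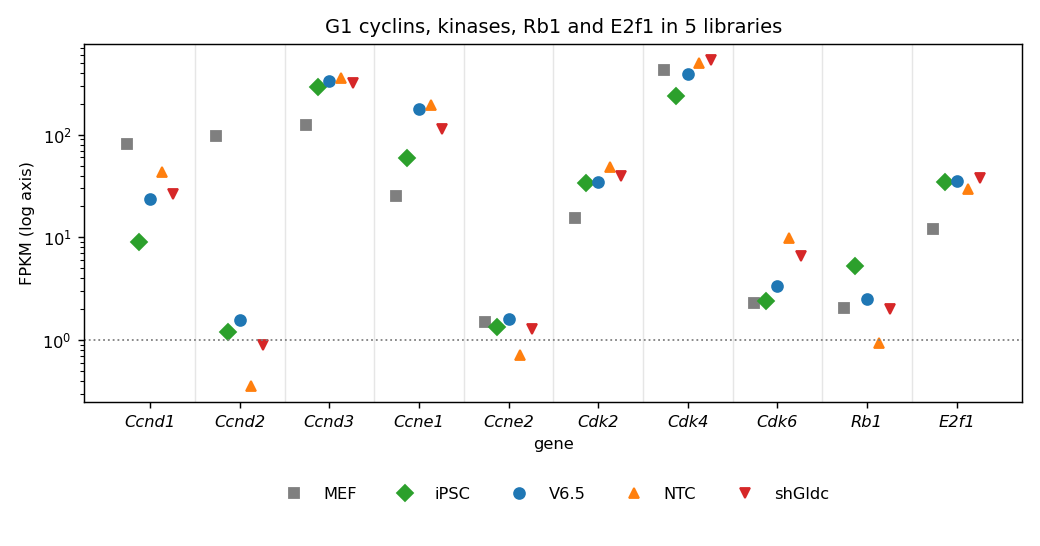
FPKM (log axis) of each of the 10 members in the 5 libraries, with 1 point per library and a dotted line at an FPKM of 1. Ccnd2 ran from 96.5 in MEFs to 0.359 in NTC cells, while Cdk4 and Ccnd3 stayed above 100 FPKM in every library.

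Ccnd1 (chr7:144929931-144939925, minus strand), the D-type cyclin most closely tied to mitogen signals, had an FPKM of 81.1 in MEFs, 8.97 in iPSCs, 23.7 in V6.5 cells, 43.8 in NTC cells, and 26.1 in shGldc cells. MEFs were again the highest, iPSCs were the lowest, and the 3 V6.5-derived libraries lay between. Ccnd1 was 3.43-fold lower in V6.5 cells and 9.04-fold lower in iPSCs than in MEFs. Its exons overlap those of Oraov1 (LTO1 in the annotation) on the opposite strand over 1100 nt, or 23.4% of its exon length, and the library kit does not keep the strand, so reads from the shared stretch cannot be assigned. Oraov1 itself had an FPKM of 7.87 in MEFs, 7.55 in iPSCs, 4.30 in V6.5 cells, 6.90 in NTC cells, and 14.1 in shGldc cells. Unlike Ccnd1 it was higher in shGldc than in NTC cells.

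Ccnd3 (chr17:47505051-47599691, plus strand) went the other way. Its FPKM was 125.3 in MEFs, 291.3 in iPSCs, 331.3 in V6.5 cells, 360.0 in NTC cells, and 321.9 in shGldc cells. The 4 pluripotent libraries lay close together and all above MEFs, by 2.64-fold in V6.5 cells and 2.32-fold in iPSCs. Ccnd3 exceeded 97.6% of all genes in MEFs and 98.9% to 99.1% in the pluripotent libraries.

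The summed FPKM of the 3 D-type cyclins was 302.9 in MEFs, 301.4 in iPSCs, 356.5 in V6.5 cells, 404.2 in NTC cells, and 348.9 in shGldc cells. The sums of MEFs and iPSCs were thus nearly equal while their makeup was not. That holds for FPKM as deposited: the total FPKM was 466650 in MEFs and 576470 in iPSCs. Scaled to the same total, the D-type sum would be lower in iPSCs than in MEFs. Ccnd1 held 26.8% of the sum in MEFs, Ccnd2 31.9%, and Ccnd3 41.4%. In the pluripotent libraries Ccnd3 held between 89.1% (NTC) and 96.6% (iPSC), Ccnd1 between 2.98% (iPSC) and 10.8% (NTC), and Ccnd2 at most 0.441% (V6.5). These shares compare levels per length; weighted by the length of the longest coding transcript, Ccnd2 held 51.8% and Ccnd3 22.5% in MEFs.

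**Figure D2:**
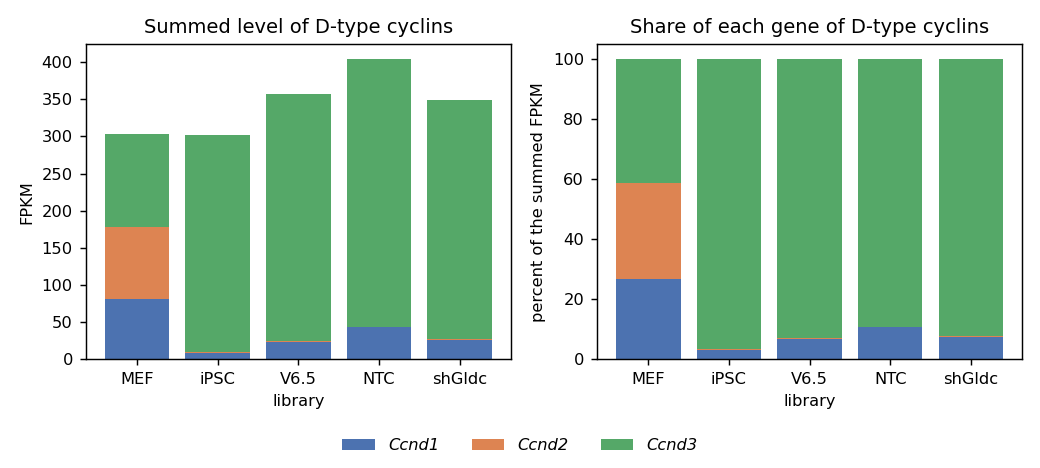
Summed FPKM of Ccnd1, Ccnd2, and Ccnd3 in each library (left) and the share of each gene in percent of that sum (right). MEFs and iPSCs have nearly the same sum of FPKM as deposited, 302.9 and 301.4, but the share of Ccnd3 is 41.4% in the first and 96.6% in the second.

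Among the E-type cyclins, Ccne1 (chr7:38097984-38107534, minus strand) was at least 2-fold above MEFs in both V6.5 cells and iPSCs, and Ccne2 was not. The Ccne1 FPKM was 25.2 in MEFs, 59.1 in iPSCs, 179.7 in V6.5 cells, 193.1 in NTC cells, and 113.3 in shGldc cells. MEFs were the lowest, V6.5 and NTC cells were the highest and close to each other, and iPSCs and shGldc cells lay between. Ccne1 was 7.13-fold higher in V6.5 cells and 2.34-fold higher in iPSCs than in MEFs. No other annotated exon overlaps Ccne1, and none of its 50-nt stretches occurs in transcripts of another gene, which makes its value the least exposed of the members to reads of other genes.

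Ccne2 (chr4:11191351-11204779, plus strand) was low everywhere, with an FPKM of 1.5 in MEFs, 1.34 in iPSCs, 1.60 in V6.5 cells, 0.710 in NTC cells, and 1.28 in shGldc cells. These stand for about 62 (NTC) to 120 (V6.5) fragments, and Ints8 on the opposite strand overlaps 17.4% of the Ccne2 exon length at an FPKM of between 5.12 and 9.04. Ccne1 held 94.4% of the E-type sum in MEFs and between 97.8% and 99.6% in the other libraries. The D-type sum was 11.3 times the E-type sum in MEFs, 4.99 times in iPSCs, 1.97 times in V6.5 cells, 2.09 times in NTC cells, and 3.04 times in shGldc cells. Thus iPSCs lay between MEFs and V6.5 cells on this ratio of summed FPKM.

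Cdk4 (chr10:127063534-127067920, plus strand), the more abundant of the kinases that D-type cyclins bind, had the highest FPKM of the members in 4 of 5 libraries. Its FPKM was 421.7 in MEFs, 236.6 in iPSCs, 386.6 in V6.5 cells, 499.3 in NTC cells, and 530.3 in shGldc cells. Ccnd3 exceeded it only in iPSCs. Cdk4 was 1.09-fold lower in V6.5 cells and 1.78-fold lower in iPSCs than in MEFs, so it did not follow the line between MEFs and pluripotent libraries. Tspan31, on the opposite strand, overlaps 19.7% of the Cdk4 exon length and had an FPKM of between 67.0 and 91.6. Cdk6 (chr5:3341485-3531008, plus strand), the other D-type partner, had an FPKM of 2.31 in MEFs, 2.43 in iPSCs, 3.37 in V6.5 cells, 9.96 in NTC cells, and 6.52 in shGldc cells. The libraries of the second table were the highest, above all 3 of the first. Cdk4 held between 98.0% (NTC) and 99.5% (MEF) of the summed FPKM of the pair.

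Cdk2 (chr10:128697939-128705031, minus strand), the partner of E-type cyclins, had an FPKM of 15.4 in MEFs, 33.7 in iPSCs, 34.8 in V6.5 cells, 48.5 in NTC cells, and 39.6 in shGldc cells. MEFs were the lowest, and Cdk2 was 2.26-fold higher in V6.5 cells and 2.18-fold higher in iPSCs. The E-type sum was 1.73 times the Cdk2 level in MEFs, 1.79 times in iPSCs, 5.21 times in V6.5 cells, 4.0 times in NTC cells, and 2.89 times in shGldc cells. Ccne1 and Cdk2 were therefore not raised alike: in iPSCs both were a little over 2-fold above MEFs, and in V6.5 cells Ccne1 was much further above.

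Rb1 (chr14:73183673-73325822, minus strand) was a low transcript, with an FPKM of 2.07 in MEFs, 5.28 in iPSCs, 2.51 in V6.5 cells, 0.931 in NTC cells, and 2.03 in shGldc cells. The iPSC library was the highest, NTC the lowest, and the other 3 lay close together. These levels stand for about 240 fragments in MEFs, 540 in iPSCs, 290 in V6.5 cells, 130 in NTC cells, and 270 in shGldc cells. Rcbtb2 and Lpar6, both on the opposite strand, overlap 8.11% and 6.78% of the Rb1 exon length. Rcbtb2 had an FPKM of 9.59 in MEFs, 4.46 in iPSCs, 6.17 in V6.5 cells, 3.49 in NTC cells, and 8.67 in shGldc cells, so that it too was the lowest in NTC cells and higher in shGldc cells. Its part in the Rb1 values was not tested. Beside its relatives, Rb1 held 25.3% of the summed FPKM of Rb1, Rbl1, and Rbl2 in MEFs, 52.0% in iPSCs, 31.5% in V6.5 cells, 17.7% in NTC cells, and 40.1% in shGldc cells.

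E2f1 (chr2:154559407-154569892, minus strand), an activating E2F factor, had an FPKM of 12.0 in MEFs, 34.3 in iPSCs, 35.7 in V6.5 cells, 29.8 in NTC cells, and 37.4 in shGldc cells. The 4 pluripotent libraries lay close together and all above MEFs, by 2.98-fold in V6.5 cells and 2.87-fold in iPSCs. E2f1 was 5.78 times the Rb1 level in MEFs, 6.5 times in iPSCs, 14.2 times in V6.5 cells, 32.0 times in NTC cells, and 18.5 times in shGldc cells.

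Counted over the members, 4 of 10 were at least 2-fold higher, on the scale of FPKM + 0.1, in V6.5 cells than in MEFs (Ccnd3, Ccne1, Cdk2, and E2f1) and 2 were at least 2-fold lower (Ccnd1 and Ccnd2). Of the 12840 genes that reached an FPKM of 1 in either library, 30.3% were higher in V6.5 cells by this measure and 23.3% were lower, so the count of members was not far from that of all genes. In iPSCs over MEFs, 5 of 10 members were at least 2-fold higher, the same 4 and Rb1, and Ccnd1 and Ccnd2 were at least 2-fold lower, beside 31.5% higher and 21.3% lower of 13032 genes. The median log2 ratio of the members was 0.40 in V6.5 cells and 0.59 in iPSCs, and that of all genes tested was 0.25 and 0.31. Because of that shift, 4 of the 5 higher members in iPSCs lay near the 2-fold line: centred on the median of all genes, E2f1 alone stayed at least 2-fold higher in iPSCs, and 2 members did once each library was rescaled to the same FPKM sum. Under both scalings Cdk4 joined the lower members in iPSCs, at -1.15 and -1.14, which made 3, and Cdk2 was under the line in V6.5 cells, at 0.92 and 0.93, which left 3 higher. The low ratio of Ccnd2 stood apart most, as given above, and the ratio of Ccne1 in V6.5 cells was matched or exceeded by 10.6% of genes. Both comparisons share the MEF library.

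**Figure D3:**
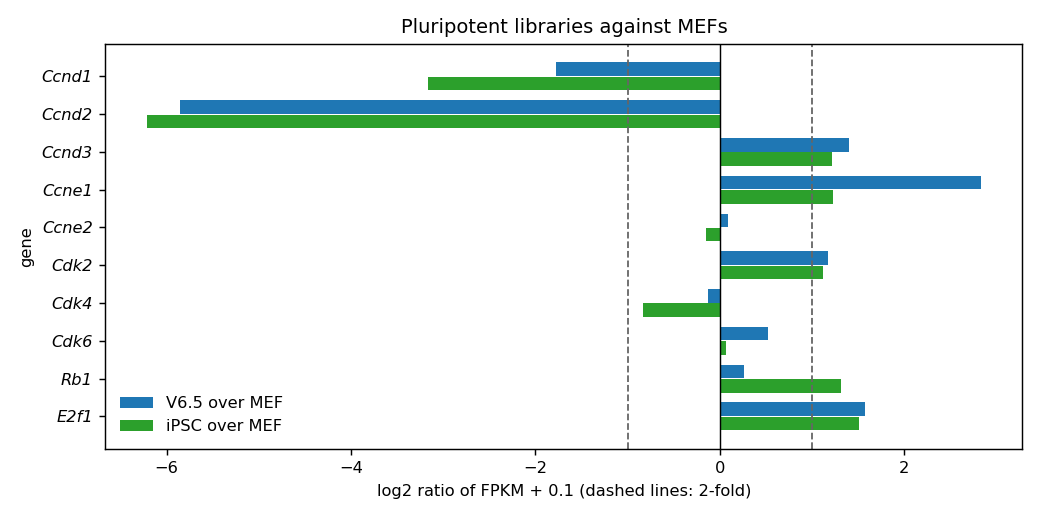
Log2 ratio of FPKM + 0.1 over MEFs for each member in V6.5 cells (blue) and iPSCs (green), with dashed lines at 2-fold. The bars of Ccnd2 reach -5.85 and -6.21, and the bar of Ccne1 is longer in V6.5 cells (2.83) than in iPSCs (1.23).

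The iPSC library differed from V6.5 cells in 3 members by at least 2-fold. Ccne1 was 3.04-fold lower in iPSCs, with a log2 ratio of -1.60, and Ccnd1 was 2.64-fold lower, with a log2 ratio of -1.39. Rb1 was 2.1-fold higher, at 1.04, which was under 2-fold with a pseudocount of 1 (0.84) or after rescaling (0.98). Of the 12323 genes tested, 10.1% were higher in iPSCs by at least 2-fold and 7.44% were lower, beside 1 and 2 of 10 members. Ratios at least as low as that of Ccne1 were found in 2.55% of genes, at least as low as that of Ccnd1 in 3.48%, and at least as high as that of Rb1 in 9.26%. Cdk4 was 1.63-fold lower in iPSCs, with a log2 ratio of -0.71, and the log2 ratios of the other 6 members ran from -0.46 for Cdk6 to -0.05 for Cdk2. Markers of other cells moved with this comparison: V6.5 cells had the higher Col1a1 level given above (1.68 in iPSCs), and the 5 endoderm markers summed to 17.7 in iPSCs and 4.82 in V6.5 cells, with Gata4 at 9.99 and 3.52. The 5 neural markers summed to 23.7 in iPSCs and 72.2 in V6.5 cells, most of it Tubb3. Their part in the member ratios was not tested.

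The question put by the knockdown was how V6.5 cells change when Gldc is low. Of the 9 members that reached an FPKM of 1 in NTC or shGldc cells, Rb1 alone was at least 2-fold higher in shGldc cells (2.18-fold, log2 ratio 1.04, and 0.65 with a pseudocount of 1), and no member was at least 2-fold lower. The corresponding shares of 11969 genes were 8.97% higher and 7.68% lower. Ccne1 stood at 58.7% of its NTC level in shGldc cells, Ccnd1 at 59.7%, and Cdk6 at 65.5%, with log2 ratios of -0.77, -0.74, and -0.60. Ratios as low as these 3 or lower were found in 10.9%, 11.4%, and 14.5% of genes. Ccne2 was 1.80-fold higher, while Ccnd3, Cdk2, Cdk4, and E2f1 had log2 ratios of -0.16, -0.29, 0.09, and 0.33. Ccnd2 was under an FPKM of 1 in both libraries, at 0.359 and 0.888, and was not counted.

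V6.5 cells without an shRNA give another control, although across tables that were made separately, so that a difference between them includes any difference between the tables. NTC and V6.5 cells were not alike in several members. Cdk6 was 2.95-fold higher in NTC than in V6.5 cells, Rb1 2.70-fold lower, Ccne2 2.26-fold lower, Ccnd2 4.38-fold lower, and Ccnd1 1.85-fold higher. Cdk6 was thus at least 2-fold higher in NTC cells, as were 4.99% of 12048 genes, and Rb1, Ccne2, and Ccnd2 were at least 2-fold lower, as were 10.3%. The Cdk6 ratio was matched or exceeded by 2.16% of these genes. Markers of other cells also differed between these libraries. The 5 mesoderm markers summed to 14.4 in NTC and 6.5 in V6.5 cells, with T at 4.33 and 0.425. The 5 neural markers summed to 34.4 and 72.2, with Sox1 at 1.43 and 7.62. Dppa5a, at 1440 and 4146, was the only 1 of 12 pluripotency markers past 2-fold. Of these 12, 7 had log2 ratios above 0 and 5 below, with a median of 0.09. The part of all these markers in the member ratios was not tested. For 7 of the 10 members the difference between NTC and V6.5 cells was larger than that between shGldc and NTC cells, as it was for 51.5% of all genes. The exceptions were Ccnd3, Ccne1, and E2f1. For 6 members (Ccnd1, Ccnd2, Ccne2, Cdk2, Cdk6, and Rb1) the shGldc level lay between those of V6.5 and NTC cells, which was so for 28.5% of 12453 genes. Taken over V6.5 cells in place of NTC, the log2 ratio of Rb1 in shGldc cells turned from 1.04 to -0.30 and that of Ccnd2 from 1.11 to -0.76. The log2 ratio moved from -0.74 to 0.14 for Ccnd1, from -0.60 to 0.93 for Cdk6, and from 0.77 to -0.30 for Ccne2. None of the 10 members was at least 2-fold higher or lower in shGldc than in V6.5 cells, beside 9.89% and 13.9% of 12237 genes.

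Of the members, Ccne1 and Ccnd3 were lower in shGldc cells than in both V6.5 and NTC cells, which was so for 35.4% of 12453 genes. Cdk4 and E2f1 were above both, as were 36.1% of these genes. For Ccnd3 the log2 ratios were small, -0.04 over V6.5 and -0.16 over NTC. The FPKM of Ccne1 was 179.7 in V6.5, 193.1 in NTC, and 113.3 in shGldc cells, with log2 ratios of -0.66 over V6.5 and -0.77 over NTC, both under 2-fold. A ratio as low or lower was found in 21.3% of genes over V6.5 and in 10.9% over NTC. V6.5 and NTC cells differed by 0.10 in Ccne1, while over the 1808 genes with a mean FPKM of at least 50 the log2 ratio of NTC over V6.5 cells had a robust SD of 0.41. By the same measure, Ccnd1 (-0.74) lay outside the robust SD of 0.49 of genes with a mean FPKM of 10 to 50. Cdk6 (-0.60) lay within the 0.63 of genes between 2 and 10, and Rb1 (1.04) and Ccne2 (0.77) within the 1.13 of genes under 2. That spread holds the effect of the control shRNA, the separate tables, and the libraries together, and is no replicate error. Endoderm markers were higher in shGldc cells, where Gata6 stood at 8.22 and Gata4 at 7.84, against 0.462 and 2.38 in NTC cells. Of the 12 pluripotency markers Fgf4 was at least 2-fold lower (log2 ratio -1.73), beside 7.68% of all genes, while the other 11 were within 2-fold. Of the 12, 11 were below 0, with a median of -0.50 against 0.04 for all genes. Over V6.5 cells 4 of the 12 were at least 2-fold lower (Tdgf1, Utf1, Dppa5a, and Fgf4), beside 13.9% of all genes. The part of all these markers in the member ratios was not tested.

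**Figure D4:**
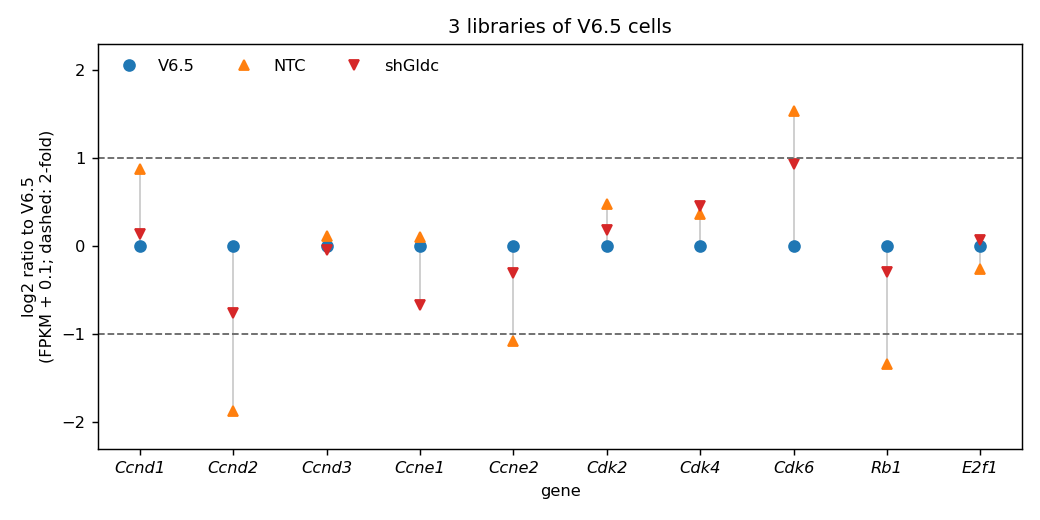
Log2 ratio of FPKM + 0.1 over V6.5 cells for each member in V6.5, NTC, and shGldc cells, with dashed lines at 2-fold. NTC cells lie farther from V6.5 cells than shGldc cells do for all members but Ccne1 and Cdk4. For Ccne1 the NTC point lies at 0.10 and the shGldc point at -0.66.

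Inhibitors of the G1 kinases were mostly lower in the pluripotent libraries than in MEFs. In the lists of other cell cycle genes, a number in brackets after a gene is its log2 ratio. Of 7 genes of the INK4 and Cip/Kip families, 5 were at least 2-fold lower in V6.5 cells than in MEFs and none was at least 2-fold higher, with a median log2 ratio of -1.77 against 0.25 for all genes. The lower genes were Cdkn1a (-2.47), Cdkn1c (-2.94), Cdkn2a (-1.22), Cdkn2b (-4.18), and Cdkn2c (-1.77), and 23.3% of all genes were as far below MEFs. In iPSCs 4 of 7 were at least 2-fold lower, these without Cdkn1a, beside 21.3% of all genes, with a median of -1.02 against 0.31. Cdkn2b, which codes for the INK4 protein p15, had the lowest ratios, and its FPKM was 94.4 in MEFs, 5.0 in iPSCs, 5.11 in V6.5 cells, 2.71 in NTC cells, and 4.85 in shGldc cells. Cdkn2d had the highest ratio, -0.12 in V6.5 cells and 0.44 in iPSCs. Cdkn2a codes for p16 and for the unrelated p19Arf from another reading frame, and its value cannot be divided between them. The summed FPKM of Cdk4 and Cdk6 was 2.21 times that of the 4 INK4 genes in MEFs, 3.54 times in iPSCs, 7.14 times in V6.5 cells, 8.42 times in NTC cells, and 7.47 times in shGldc cells. So the kinase mRNA of iPSCs was lower and its inhibitor mRNA higher than in V6.5 cells.

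Cdkn1a, which codes for the Cip/Kip inhibitor p21, had an FPKM of 258.3 in MEFs, 147.3 in iPSCs, 46.6 in V6.5 cells, 72.9 in NTC cells, and 116.0 in shGldc cells. In rising order of Cdkn1a the libraries ran V6.5, NTC, shGldc, iPSC, and MEF, and in rising order of Ccne1 MEF, iPSC, shGldc, V6.5, and NTC. The orders were not exact reverses, since both genes were higher in NTC than in V6.5 cells. They rest on 5 libraries only, and a link between the 2 genes was not tested. Cdkn1a (1.66) and Cdkn1c (1.20) were at least 2-fold higher in iPSCs than in V6.5 cells. No inhibitor passed 2-fold in shGldc over NTC cells, where the log2 ratios ran from -0.67 for Cdkn1b to 0.82 for Cdkn2b. Of all genes, 10.1% were higher and 7.44% lower in iPSCs over V6.5 cells, and 8.97% and 7.68% in shGldc over NTC cells. Over V6.5 cells, Cdkn1a (1.31) was past 2-fold above and Cdkn1c (-1.5) past 2-fold below in shGldc cells, beside 9.89% and 13.9% of all genes. Cdkn1c was already past 2-fold lower in NTC than in V6.5 cells (-1.27) and stood at -0.23 in shGldc over NTC cells.

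Among the other pocket protein, E2F, and DP genes, which act with Rb1 and E2f1, E2f2 was the furthest above MEFs and Rbl2 the furthest below. Of 11 genes, 5 were at least 2-fold higher in V6.5 cells than in MEFs (E2f2, E2f4, E2f5, E2f8, and Tfdp2) and Rbl2 was lower, with log2 ratios of 3.26 for E2f2 and -1.16 for Rbl2. All genes were higher in 30.3% and lower in 23.3%, and the median log2 ratio was 0.83 for the list and 0.25 for all genes. In iPSCs 3 were at least 2-fold higher (E2f2, E2f5, and Tfdp2) and Rbl2 was lower, beside 31.5% and 21.3% of all genes, and the list median of 0.38 was close to the 0.31 of all genes. E2f4, a mainly repressive E2F, was at least 2-fold lower both in iPSCs than in V6.5 cells (-1.05) and in shGldc than in NTC cells (-1.07), at an FPKM of 31.4 in MEFs, 60.1 in iPSCs, 124.4 in V6.5 cells, 168.7 in NTC cells, and 80.3 in shGldc cells. Like Ccne1, E2f4 was thus the lowest in MEFs and the highest in V6.5 and NTC cells. Over V6.5 cells E2f4 stood at -0.63 in shGldc cells, under 2-fold, and Rbl1 (-1.05) was the gene past it, beside 13.9% of all genes. E2f8 was also lower in iPSCs than in V6.5 cells, at -1.12, and in shGldc over NTC cells the median of the 11 genes was -0.44, against 0.04 for all genes. Called lower were thus 2 of 11 in iPSCs over V6.5 cells and 1 of 11 in shGldc over NTC cells, beside 7.44% and 7.68% of all genes.

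The 27 S-phase genes known to be under E2F control were higher in the pluripotent libraries as a list. At least 2-fold higher levels were found for 25 of 27 in V6.5 cells and 23 of 27 in iPSCs over MEFs, and none was at least 2-fold lower, with median log2 ratios of 2.13 and 2.04. Among all genes 30.3% and 31.5% were at least 2-fold higher, and the medians were 0.25 and 0.31. Ung, which removes uracil from DNA, had the highest ratio in both, 3.89 and 3.56, and Rrm1, a ribonucleotide reductase subunit, the lowest, 0.41 and -0.48. Ccne1 and E2f1, which are among the members that E2F is known to act on, had ratios of 2.83 and 1.57 in V6.5 cells. In iPSCs they had 1.23 and 1.51, and all but the Ccne1 ratio in V6.5 cells were below the median of the S-phase list. Ccne2, the other E-type cyclin, did not go with that list, at 0.09 in V6.5 cells and -0.15 in iPSCs. No S-phase gene passed 2-fold in iPSCs over V6.5 cells, where 25 of 27 ratios were below 0, or in shGldc over NTC cells, where 23 were below 0 and the range was from -0.56 for Pola1 to 0.53 for Tyms. The list median was -0.38 in iPSCs over V6.5 cells and -0.19 in shGldc over NTC cells, against 0.04 for all genes in each. In the first comparison 10.1% of all genes were at least 2-fold higher and 7.44% lower, and in the second 8.97% and 7.68%. Over V6.5 cells, 15 of the 27 ratios in shGldc cells were below 0 and the median was -0.05, against -0.02 for all genes, and 3 genes reached 2-fold below V6.5 cells, Pola1 (-1.08), Dbf4 (-1.05), and Rrm2 (-1.0), beside 13.9% of all genes. In NTC over V6.5 cells these genes stood at -0.53, -0.65, and -0.45.

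Later cyclins were higher in V6.5 cells and iPSCs than in MEFs. Of the S, G2, and M cyclins and Cdk1, 5 of 7 genes passed the filter (Ccna1 and Ccnb3 did not), and all 5 were at least 2-fold higher in V6.5 cells than in MEFs, from 1.15 for Ccna2 to 3.55 for Ccnf. In iPSCs 4 of 5 were, against 30.3% and 31.5% of all genes. Of 6 activators of the kinases, Cdc25a (2.09) and Cdc25c (1.45) were at least 2-fold higher in V6.5 cells, and Cdc25a (1.5), Cdc25c (1.52), and Mnat1 (1.03) in iPSCs. Of 9 genes for the turnover of G1 cyclins and inhibitors, 3 were at least 2-fold higher and 1 lower in each comparison, which is near or under the 30.3% and 31.5% of all genes higher and the 23.3% and 21.3% lower. Skp2 (1.36) and Fzr1 (1.24) were among the higher genes in V6.5 cells, and Fbxw7 (1.28) and Fzr1 (1.08) in iPSCs. Fbxo5, an inhibitor of the anaphase-promoting complex, had the highest ratio (2.29 and 1.89) and Gsk3b, a kinase known to phosphorylate cyclin D1, the lowest (-1.64 and -1.23). None of these 3 lists had a gene past 2-fold in iPSCs over V6.5 cells or in shGldc over NTC cells. Beside this, 10.1% of all genes were higher and 7.44% lower in the first of these comparisons, and 8.97% and 7.68% in the second.

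**Figure D5:**
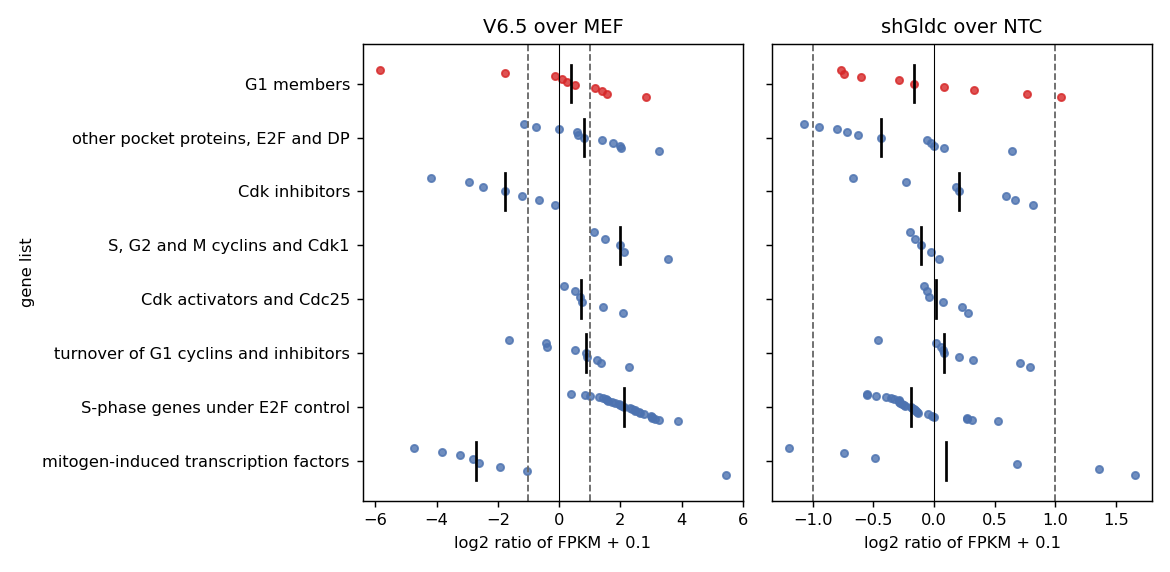
Log2 ratio of FPKM + 0.1 in V6.5 cells over MEFs (left) and in shGldc over NTC cells (right) for the members (red) and 7 lists of other cell cycle genes (blue), with 1 point per gene, bars at the medians, and dashed lines at 2-fold. The S-phase list has its median at 2.13 on the left and at -0.19 on the right, and the Cdk inhibitors at -1.77 and 0.21.

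Transcription factor genes that answer to mitogens, which lie ahead of the D-type cyclins, were mostly lower in V6.5 cells and iPSCs than in MEFs. Of 8 genes, all but Mycn were at least 2-fold lower in V6.5 cells, from -1.03 for Fos to -4.73 for Fosl2, and Mycn was higher at 5.45. In iPSCs 6 were at least 2-fold lower, down to -3.81 for Fosl2, Mycn was higher at 4.91, and Fos stood at 0.21. Among all genes, 23.3% were at least 2-fold lower and 30.3% higher in V6.5 cells, and 21.3% and 31.5% in iPSCs. Myc, a factor known to bind the E box letters shown for Cdk4, had an FPKM of 31.3 in MEFs, 4.61 in iPSCs, 2.11 in V6.5 cells, 19.1 in NTC cells, and 8.30 in shGldc cells. Mycn had an FPKM of 0.709 in MEFs, 24.3 in iPSCs, 35.3 in V6.5 cells, 48.5 in NTC cells, and 29.0 in shGldc cells. Myc was in this way among the genes that differed between NTC and V6.5 cells, at a log2 ratio of 3.12, as Ccnd1 and Cdk6 did. In iPSCs over V6.5 cells 5 of the 8 were at least 2-fold higher, Egr1 (1.97), Fosl1 (1.40), Jun (1.32), Fos (1.25), and Myc (1.09), whereas Ccnd1 was lower, and 10.1% of all genes were as far above V6.5 cells. In shGldc over NTC cells, where 6 of the 8 passed the filter, Fos (1.66) and Jun (1.36) were higher and Myc (-1.19) was lower, beside 8.97% of all genes higher and 7.68% lower. Over V6.5 cells the same log2 ratios were -0.32 for Fos, 0.30 for Jun, and 1.93 for Myc, so Fos and Myc changed direction with the control, and in NTC over V6.5 cells Fos stood at -1.98.

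Ccnd2 and Ccnd1 varied most over the 5 libraries, with ranges of 7.72 and 3.16 on the log2 scale. Among 13655 genes, the profiles nearest to that of Ccnd2 were those of Srpx, Serpinf1, and Filip1l, with root mean square differences of 0.26 each on the log2 scale after centring. Serpinf1 had an FPKM of 492.8 in MEFs, 5.0 in iPSCs, 10.8 in V6.5 cells, 1.86 in NTC cells, and 5.14 in shGldc cells. Srpx and Filip1l were listed at 0 in NTC cells. The nearest to Ccnd1 were Ept1 (0.23), Zfp827 (0.26), and Cdc42ep5 (0.26). Cdc42ep5 had an FPKM of 52.3 in MEFs, 6.15 in iPSCs, 19.1 in V6.5 cells, 22.1 in NTC cells, and 13.2 in shGldc cells. Such a likeness rests on 5 libraries only.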

How the data were processed

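RNA from 5 mouse libraries (MEF, iPSC, V6.5, NTC, and shGldc) was sequenced on the Illumina HiSeq platform after TRIzol extraction and NEBNext Ultra library preparation, a kit that does not keep the strand. The authors mapped reads to mm10 with TopHat2 (2.1.0), assembled transcripts with StringTie (1.3.4d), and deposited FPKM values computed with Ballgown in 2 tables made separately. The submitters' processing notes also name mm9 and SAMtools (1.7) without a role, and the annotation, strand setting, and filters are not given in the sources used here. FPKM corrects for length and depth but not for RNA composition, and for genes with several transcripts the way they were combined is not given.

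From the deposited FPKM, log2(FPKM + 0.1) differences were taken between libraries, which understate the change of low genes, while folds and percentages in the text are ratios of the FPKM themselves. Genes were tested where either library of a comparison reached an FPKM of 1, and a difference of 2-fold or more on that log2 scale was called. With 1 library per group no test was possible. Named were all members, from each of 7 lists the highest, lowest, and called genes of a comparison within a table (not all of these are printed, and the called S-phase genes are given as a count), and for the 2 widest-ranging members the 3 nearest profiles. The members and lists were chosen with earlier results of these data known, and the promoter motifs after the values were seen. Depth was estimated from the steps between low FPKM values of 5723 genes with a single transcript, and covers counting only. Gene positions and overlaps are from GENCODE M21, and promoter windows are from RefSeq. Alternatives were pseudocounts of 1 and 0.01, rescaling to a common FPKM sum, centring on the median, an FPKM of 5 or no filter, a 1.5-fold line, V6.5 in place of NTC, and length-weighted shares. A ratio was taken as moved past 0.59, the robust SD of log2 ratios of NTC over V6.5 cells, and a count past 1.5 times. Python 3.11.15, numpy 2.4.6, pandas 2.3.3, and matplotlib 3.10.9 were used.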

Additional observations from a re-analysis of the deposited data

Results flagged for a closer look

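Several genes lay on opposite sides of MEFs in V6.5 cells and in iPSCs. Ccne2 was the only member among them, with a log2 ratio over MEFs of 0.09 in V6.5 cells and -0.146 in iPSCs. This depended on the scaling: centred on the median of all genes, Ccne2 was below MEFs in both (-0.16 and -0.46), and Cdk6 was the member on opposite sides (0.28 and -0.25). Among the other cell cycle genes, the log2 ratio was 0.00 for E2f3 in V6.5 cells and -0.151 in iPSCs, -0.75 and 0.0832 for E2f6, -0.12 and 0.445 for Cdkn2d, 0.41 and -0.483 for Rrm1, and -1.03 and 0.211 for Fos. Of these, E2f3, E2f6, and Fos would lie on the same side in both after centring on the medians of all genes (0.25 and 0.31). Both ratios share the MEF library, each rests on 1 library per group, and these differences were not tested. Apart from the V6.5 ratio of Fos, all of these ratios were under 2-fold.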

How the results depend on the processing

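With 1 library per group, no replicate could be left out. No paired analysis was possible because each group has a single library. Of the alternative values of member counts, background percentages, and D-type shares, 66 stayed within the limits stated and 21 moved. Of those of the member ratios and list medians, 274 stayed within the limits, 6 moved, and 2 ratios past 2-fold changed sign. These 2, in shGldc cells set over V6.5 in place of NTC cells, were -0.76 for Ccnd2 and -0.30 for Rb1. Of the members under 2-fold there, 4 changed sign too, Ccnd1 (0.14), Ccne2 (-0.30), Cdk6 (0.93), and Cdk2 (0.19), and the cause was not tested. The count of members at least 2-fold higher in iPSCs over MEFs was 2 after rescaling and 1 after centring, and in iPSCs over V6.5 cells it was 0 with a pseudocount of 1 or after rescaling, as Rb1 dropped out. In shGldc over NTC cells it was 0 with a pseudocount of 1 or an FPKM of at least 5, 2 without a filter, and 2 at 1.5-fold, where 3 were lower. With an FPKM of at least 5, 5.85% of all genes were higher and 3.96% lower in shGldc over NTC cells. Weighted by transcript length, the D-type shares were 51.8% Ccnd2 and 22.5% Ccnd3 in MEFs. Ccnd1 then held 5.11% in iPSCs, 11.1% in V6.5, 17.7% in NTC, and 12.5% in shGldc cells, and Ccnd2 1.16%, 1.25%, 0.245%, and 0.718%. The medians of the 7 lists, under 4 alternatives chosen after the data were seen, kept their sign except that of the kinase activators in shGldc over NTC cells, which went from 0.02 to -0.02. Low depth limits Ccnd2, Ccne2, and Rb1 most.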
